A study of Canis lupus familiaris with 21 samples.

Results

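Snail1 and Snail2 are 2 related transcription factors, and the 6 value-table columns titled for them, 3 for each line, were compared with each other here out of 21 columns in the series. The cells were MDCK-II, an epithelial cell line from dog kidney. In the labels, channel Cy5 of a Snail1 or Snail2 array is RNA of MDCK-II cells overexpressing that factor, and channel Cy3 is RNA of MDCK-II cells with an empty pLKO vector, described alike for both lines. The extraction protocol in the same labels speaks instead of tumour RNA and a pooled Cy3 reference, and the channel descriptions were followed here. The other 15 columns belong to E47, Twist1, Twist2, Zeb1 and Zeb2 lines, also 3 each. Columns were taken by their sample title alone, with no measured value used. Clones were picked under G418 or puromycin. Each array is called a biological replicate, but the labels do not give how many clones a line holds, which drug each line had, or whether replicates were separate clones or cultures. P-values therefore describe the variation among these arrays, which may in part be technical.

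Snail1 and Snail2 (the latter also called Slug) are zinc-finger proteins that bind E-box sequences and mostly repress transcription. Both are known to repress the E-cadherin gene and to drive epithelial-mesenchymal transition, a change by which cells of an epithelium lose their junctions and polarity and become motile. MDCK cells are a common model for this change because they form a tight, polarised sheet. How far 2 paralogues with similar DNA-binding domains act on the same transcripts in the same cells is the question this pair of lines can be set against.

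The labels of files and columns conflict, and this bears on every value below. Of 21 columns, 15 equalled the deposited log10 ratios of a scanner file within 1e-04 (97.8% to 97.9% of 42034 spots), and in 0 of the 15 was that file recorded for the column's own sample. For 9 of the 15 it was recorded for another line. All 3 Snail2 columns equalled a file: the first equalled the file recorded for the first E47 array, the second that of the third Snail2 array and the third that of the second Snail2 array. None of the 3 Snail1 columns (0) equalled any file, and their highest correlation with a file across spots was 0.62 to 0.65. For all 3 that file was the one recorded for the third Zeb2 array, which equalled no column. None of the 3 files recorded for Snail1 (0) equalled a column. All 3 Snail2 columns come, through their equal files, from 1 slide, which also holds a column of E47. The slides of the Snail1 columns are unknown, so slide and line cannot be told apart in this comparison. In all 21 files the grid that supplies probe names has another design number than the slide. Spots are therefore given by their ID and by row and column on the array, with no gene name, and neither the overexpressed factor nor epithelial markers could be checked in the lines.

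Of 42034 spots, 30183 were well above background in either channel in at least 3 of the 21 scanner files and were tested. At the edge of this filter, 1048 spots were detected in exactly 3 files and 1858 in exactly 2. Values are log2(Cy5/Cy3), the line over control. A spot was called at a Benjamini-Hochberg adjusted limma p under 0.05 and an absolute log2 value of at least 1, which is a 2-fold change. An exact 0 in these ratios was read as a spot without signal well above background. In the scanner files, 100% of spots at 0 had neither channel well above background. For the Snail1 columns, which equal no file, this reading is assumed. The Snail columns had 661 to 1496 spots at exactly 0 among those tested, the most in the first Snail2 column and 788 to 814 in the Snail1 columns.

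Snail1 columns were narrower than Snail2 columns. Over tested spots the standard deviation of log2 ratios was 0.929, 0.928 and 0.931 in the Snail1 columns and 1.48, 1.61 and 1.63 in the Snail2 columns. The groups did not overlap, and the difference between their means was -0.65 (exact two-sided permutation test, p = 0.10, the smallest that 3 against 3 columns allow). Columns of a line resembled each other, with r across spots of 0.80 to 0.84 within Snail1 and 0.89 to 0.94 within Snail2. Between the lines r was 0.36 to 0.44, and all columns are ratios over control RNA, which they have in common. The spread of a single spot over its 3 columns was alike in both lines, with a median SD of 0.256 in Snail1 and 0.281 in Snail2.

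Against control, Snail1 changed 3291 spots (10.9% of those tested), 1896 higher (6.28%) and 1395 lower (4.62%). Snail2 changed 13859 spots (45.9%), 6916 higher (22.9%) and 6943 lower (23%). This gap in calls depended on how the columns were scaled. Scaled to a common spread, meaning an equal median absolute log2 ratio, they gave 8737 calls in Snail1 and 9676 in Snail2. Quantile normalised, they gave 8552 and 10707. The first scaling need not make the SDs equal. Set directly against each other, the lines differed at 11862 spots (39.3%), of which 5986 (19.8%) were higher and 5876 (19.5%) lower in Snail1 than in Snail2. Without adjustment, limma gave p under 0.05 at 16770 spots (55.6%). In 11641 of these 11862 the 3 columns of one line did not overlap those of the other. Over all tested spots that was so for 19107, or 63.3%. The difference exceeded 2 on the log2 scale at 4343 spots, 3 at 1159 and 4 at 233, against a median standard error of 0.35.

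**Figure D1:**
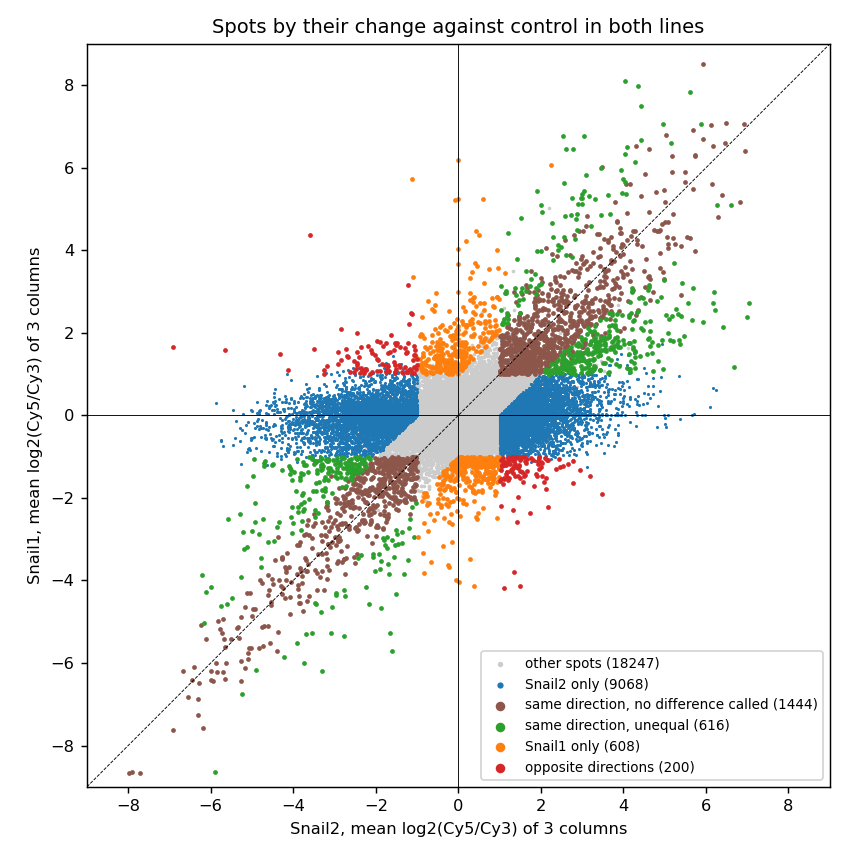
Mean log2(Cy5/Cy3) of 3 Snail2 columns (horizontal) and 3 Snail1 columns (vertical) for each of 30183 tested spots, coloured by class; the dashed line marks equal change. The 9068 spots called in Snail2 only lie along the horizontal axis, while the 1444 alike spots follow the dashed line and 200 spots lie in the quadrants of opposite sign.

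The largest class was spots changed in Snail2 only, meaning called in Snail2, not called in Snail1, and different between the lines. It held 9068 spots (30% of those tested), 4276 higher (14.2%) and 4792 lower (15.9%) in Snail2. The reverse class, changed in Snail1 only, held 608 spots (2.01%), 299 higher (0.991%) and 309 lower (1.02%). Only 200 spots (0.663%) were called in both lines in opposite directions. Both lines changed 2060 spots the same way, 62.6% of the Snail1 calls and 14.9% of the Snail2 calls. With scaled columns 3192 spots changed alike, 36.5% of the Snail1 and 33.0% of the Snail2 calls, and with quantile normalisation 3345, or 39.1% and 31.2%. Of the 2060 alike spots in the columns as deposited, the size differed between the lines for 616 (2.04%). For the other 1444 (4.78%) no difference was called, 894 of them higher (2.96%) and 550 lower (1.82%) in both lines. A further 423 spots (1.4%) were called in Snail1 alone and 2531 (8.39%) in Snail2 alone without a called difference between the lines. The remaining 1370 spots that differed (4.54%) were called in neither line against control.

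These proportions depended on how the columns were scaled. The common spread is an equal median absolute log2 ratio, and SDs after that scaling were not compared. When all columns were scaled to a common spread, the lines still differed at 10672 spots, but 3891 were changed in Snail2 only and 3277 in Snail1 only, and 631 were opposite. With quantile normalisation of the columns the counts were 4378, 2860 and 699. Whether the narrower Snail1 columns reflect smaller changes in the cells or the making of the values was not tested. Of the 11862 differing spots, 7696 kept their call and sign after scaling and 8203 after quantile normalisation. Among the 20 named spots below, scaling enlarged 10 differences and reduced 5 by over 1.5 times, and quantile normalisation enlarged 0 and reduced 3, so the sizes given are those of the columns as deposited.

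**Figure D2:**
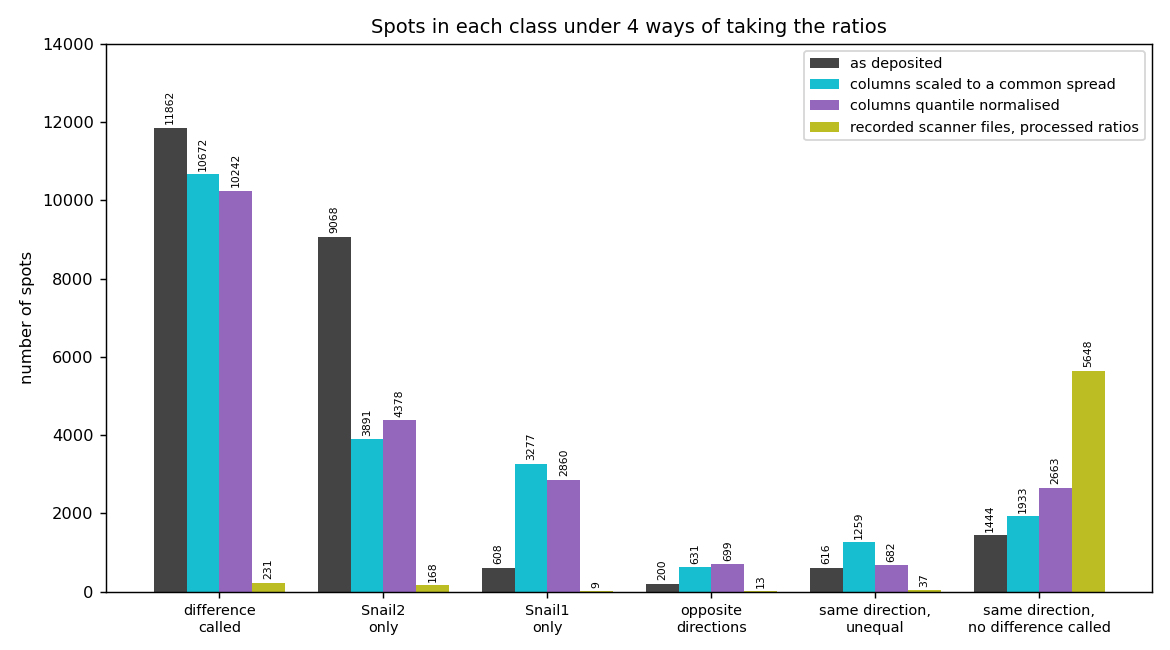
Number of tested spots (vertical axis) with a called difference between Snail1 and Snail2 and in each class, as deposited, with columns scaled or quantile normalised, and in the scanner files under their recorded samples. Snail2-only spots outnumber Snail1-only spots 9068 to 608 as deposited and 3891 to 3277 after scaling; the recorded files give 231 differing spots.

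Spots moving in opposite directions were split evenly by direction. Snail1 was higher and Snail2 lower at 96 spots (0.318%), with a median of 1.30 in Snail1 and -1.76 in Snail2. At 104 spots (0.345%) Snail1 was lower and Snail2 higher, with medians of -1.24 and 1.45. In all 200 the columns of the lines did not overlap, against 63.3% of all tested spots, but calls in opposite directions nearly ensure this. The changes were mostly small in at least 1 line: with a threshold of 2 on the log2 scale in place of 1, only 3 spots remained opposite. For 36 of the 96 spots lower in Snail2 (37.5%), the line channel of all 3 equal files was not well above background. The Snail2 level there has only an upper bound. Over all tested spots the share was 16.5%.

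A_11_P0000020113 (row 378, column 8 of the array) was one of the named opposite spots. Its log2 ratios were 1.49, 1.76 and 1.70 in the Snail1 columns and -6.07, -7.68 and -6.99 in the Snail2 columns. Every Snail1 column thus lay above control and every Snail2 column far below it, a difference of 8.56 ± 0.36 (SE, n = 3 per line, limma adjusted p = 1.06e-10). The line channel was not well above background in any of the 3 Snail2 files (0), so the Snail2 value and the difference are bounds and have no exact rank among spots. This spot was low in other lines as well, with means of -6.61 in Twist2, -6.73 in Zeb1, -6.80 in Zeb2, -4.96 in Twist1 and -0.73 in E47, and Snail1 was the only one of the 7 lines with a mean above 0.

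Spot A_11_P0000029053 (row 196, column 80) read 4.35, 4.44 and 4.33 in Snail1 against -3.98, -3.43 and -3.37 in Snail2. The difference was 7.97 ± 0.58 (SE, limma adjusted p = 1.01e-07), again a bound, with the Snail2 line channel not well above background in any of its 3 files. Both named spots of the other direction were well above background in both channels of all 3 Snail2 files, while 6 of the 104 in that class had a control channel not well above background in any. The low line there is Snail1, whose columns have no such flags, so its values and the differences may be bounds as well. A_11_P000004831 (row 364, column 12) read -4.25, -4.29 and -3.89 in Snail1 and 1.35, 1.45 and 1.70 in Snail2, a difference of -5.65 ± 0.23 (SE, limma adjusted p = 6.46e-11). Its columns were tight within both lines and far apart between them. A_11_P000004473 (row 187, column 2) lay at -4.19 ± 0.16 (SD, n = 3) in Snail1 and read 0.87, 0.88 and 1.57 in Snail2, a difference of -5.30 ± 0.52 (SE, limma adjusted p = 1.13e-06). Here the decrease in Snail1 was much larger than the increase in Snail2, whose mean of 1.11 lay just past the threshold.

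**Figure D3:**
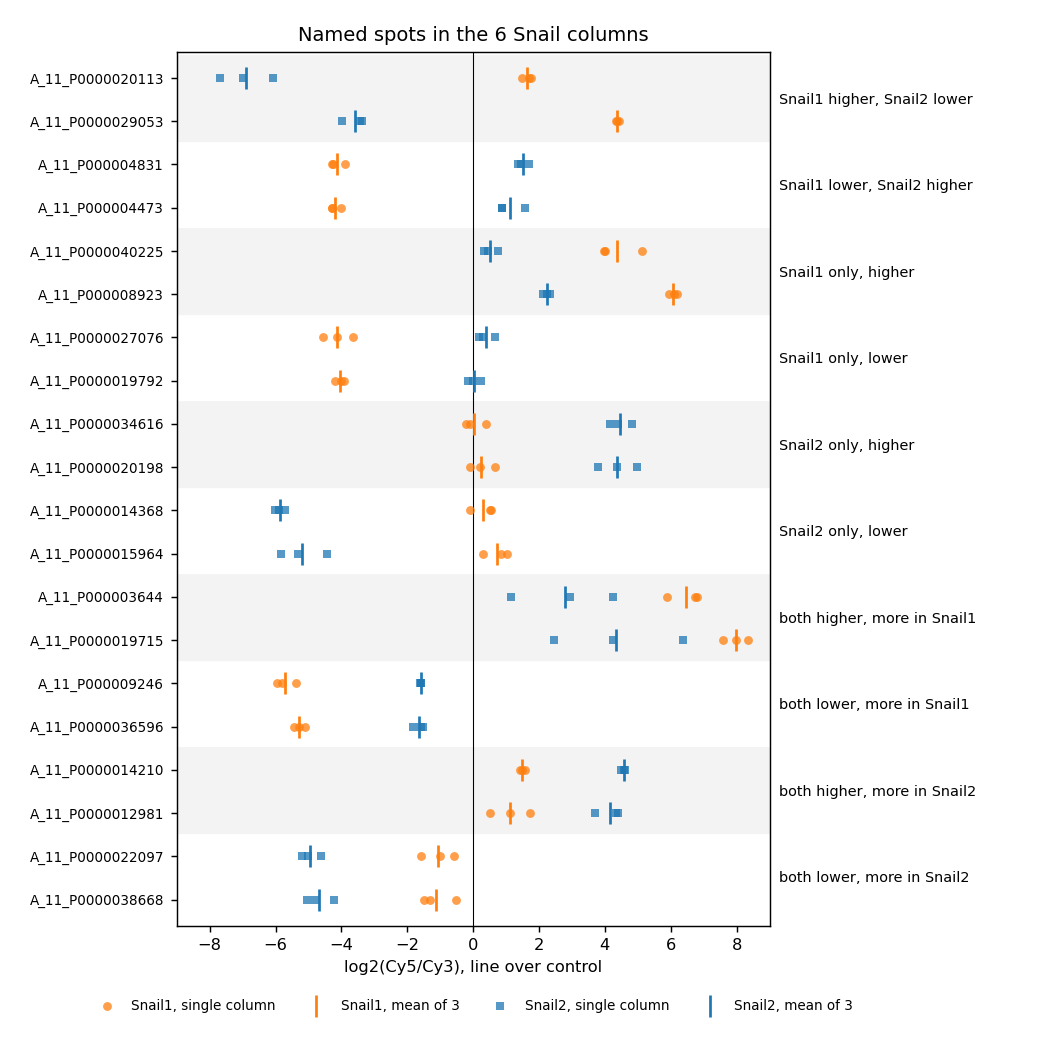
Log2(Cy5/Cy3) (horizontal axis) of 20 spots, 2 from each of 10 classes, in the 3 Snail1 columns (orange circles) and 3 Snail2 columns (blue squares), with bars at the means. Only spots whose columns of one line lie apart from those of the other could be chosen. Mean differences (Snail1 minus Snail2) run from -5.65 at A_11_P000004831 to 8.56 at A_11_P0000020113, where the Snail2 level is only a bound.

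Among spots changed in Snail1 only, the median was 1.63 for those higher and -1.35 for those lower, with -0.02 and 0.29 at the same spots in Snail2. Of the 608, 376 (61.8%) had a Snail2 mean within 0.5 of 0, against 29.9% of all tested spots. The class itself requires that Snail2 was not called. At 9 of the spots higher in Snail1, all 3 Snail2 columns were exactly 0 and hence without signal well above background. Over all tested spots this was so for 321. A_11_P0000040225 (row 69, column 44) read 4.01, 3.96 and 5.11 in Snail1 and 0.76, 0.44 and 0.33 in Snail2, a difference of 3.85 ± 0.41 (SE, limma adjusted p = 2.08e-06). The lowest Snail1 column was more than 3 above the highest Snail2 column. A_11_P0000027076 (row 326, column 6) fell in all Snail1 columns, at -4.57, -3.66 and -4.15, and read 0.67, 0.17 and 0.30 in Snail2, a difference of -4.50 ± 0.39 (SE, limma adjusted p = 4.17e-07). A_11_P0000019792 (row 24, column 55) was at -4.05 ± 0.15 (SD, n = 3) in Snail1 and 0.03 ± 0.21 in Snail2. It was not special to Snail1 among the 7 lines, since its means were -4.29 in E47, -3.78 in Twist1 and -4.61 in Twist2, so here Snail2 was the line that stayed at the control level.

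A_11_P000008923 (row 194, column 13) stood at 6.08 ± 0.12 (SD, n = 3) in Snail1 and 2.24 ± 0.11 in Snail2. Although its columns were tight in both lines, the standard error of their difference of 3.84 was 1.41, because the spread was estimated over all 7 lines and this spot varied within others. Its Snail2 mean passed the fold limit but not the test (limma adjusted p = 0.057), which alone placed it among Snail1-only spots. The call of its difference (limma adjusted p = 0.032) was lost without any single one of the 6 Snail columns, at adjusted p of 0.063 to 0.073, while the difference itself stayed at 3.78 to 3.91. With scaled columns the difference was 10.1.

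Among spots changed in Snail2 only, the median in Snail2 was 1.74 for those higher and -1.94 for those lower, and the Snail1 median was -0.004 and -0.006. The Snail1 mean was within 0.5 of 0 at 7071 of the 9068 (78.0%), against 68.5% of all tested spots. The class itself requires that Snail1 was not called. All 3 Snail1 columns were exactly 0 at 88 of the 4276 higher spots and at 2 of the 4792 lower ones, and at 406 of all tested spots. At 940 of the lower spots, 19.6%, the line channel was not well above background in any of the 3 Snail2 files, so their decrease has only a lower bound. Over all tested spots this was so for 4985, or 16.5%.

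A_11_P0000034616 (row 157, column 46) read 4.15, 4.83 and 4.40 in Snail2 and -0.21, 0.38 and -0.11 in Snail1. Snail1 was thus at the control level at a spot raised in every Snail2 column, and the difference was -4.44 ± 0.37 (SE, limma adjusted p = 3.01e-07). A_11_P0000020198 (row 328, column 32) showed the same, at 4.38 ± 0.58 (SD, n = 3) in Snail2 and 0.25 ± 0.38 in Snail1. A_11_P0000014368 (row 98, column 74) read -5.88, -5.71 and -6.01 in Snail2 and -0.11, 0.54 and 0.50 in Snail1. It was well above background in both channels of all 3 Snail2 files, so this decrease was measured and not bounded by background, with a difference of 6.17 ± 0.98 (SE, limma adjusted p = 7.66e-05). A_11_P0000015964 (row 326, column 32) stood at -5.20 ± 0.71 (SD, n = 3) in Snail2 and 0.72 ± 0.38 in Snail1. Its line channel was well above background in only 2 of the 3 Snail2 files, so its decrease is in part a bound.

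At the 2060 spots changed the same way, 1270 higher and 790 lower, the change was larger in Snail2 at 1373 and larger in Snail1 at 687. The median absolute log2 value was 1.84 in Snail1 and 2.48 in Snail2. Of the 616 with a called difference in size, 286 were higher (0.948%) and 185 lower (0.613%) with more change in Snail2, and 90 were higher (0.298%) and 55 lower (0.182%) with more in Snail1. The 90 and 55 spots that changed more in Snail1 had medians of 4.62 and -3.78 in that line, beside 2.55 and -1.89 in Snail2. The larger Snail1 medians follow from how the class was chosen.

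Among spots that changed more in Snail1, A_11_P0000019715 (row 100, column 57) read 8.35, 7.99 and 7.57 in Snail1 and 2.44, 4.24 and 6.36 in Snail2. The Snail2 columns spread over almost 4 log2 units, and the difference was 3.63 ± 0.67 (SE, limma adjusted p = 2.75e-04). That none reached the lowest Snail1 column follows from how named spots were chosen. The raw Cy5 signal was 65528 in the first and second of its Snail2 files and 47609 in the third, and 65528 lies at the top of the scanner's range, so the Snail2 increase may be understated and the difference is uncertain. The raw Cy3 signal, of the control, was 3244, 814 and 278 in these files, so the rise of the ratio over the Snail2 columns went with a fall of the control channel. With scaled columns the difference was 12.2. A_11_P000003644 (row 273, column 27) had the same kind of spread, at 1.16, 2.94 and 4.24 in Snail2 against 6.79, 6.73 and 5.87 in Snail1. The first Snail2 column was the lowest and the third the highest at both spots. At A_11_P000003644 the raw Cy3 signal was 1339.5, 327 and 140 in the Snail2 files, and Cy5 was 12494, 8085.5 and 3028. The cause of the falling control signal was not tested. A_11_P000009246 (row 172, column 18) read -5.94, -5.38 and -5.81 in Snail1 and -1.57, -1.59 and -1.63 in Snail2, a difference of -4.11 ± 0.35 (SE, limma adjusted p = 3.79e-07). Its means in the other lines were smaller still, from -1.27 in Twist1 to -0.10 in Zeb2. A_11_P0000036596 (row 320, column 76) stood at -5.28 ± 0.17 (SD, n = 3) in Snail1 and -1.65 ± 0.15 in Snail2.

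Among spots that changed more in Snail2, A_11_P0000014210 (row 259, column 78) read 4.50, 4.62 and 4.59 in Snail2 and 1.41, 1.58 and 1.48 in Snail1. Both lines were tight here, and the difference was -3.08 ± 0.52 (SE, limma adjusted p = 1.32e-04). A_11_P0000012981 (row 73, column 13) stood at 4.14 ± 0.39 (SD, n = 3) in Snail2 and 1.12 ± 0.60 in Snail1. Scaling the columns to a common spread ended both calls, leaving differences of -0.48 and -0.85. A_11_P0000022097 (row 261, column 16) read -4.61, -5.01 and -5.21 in Snail2 and -1.60, -1.02 and -0.59 in Snail1, a difference of 3.87 ± 0.45 (SE, limma adjusted p = 4.63e-06). A_11_P0000038668 (row 183, column 33) stood at -4.69 ± 0.42 (SD, n = 3) in Snail2 and -1.12 ± 0.53 in Snail1. Both calls held with scaled columns, at smaller differences of 1.59 and 1.30.

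At spots where the paralogues parted, Zeb1 mostly read like Snail1, and E47 and Twist2 like Snail2. All lines share the control RNA, so these are levels set side by side and not a test. Column width moved with this likeness: over all spots the SD was 0.73 to 0.82 in Zeb1 and 0.83 to 0.85 in Snail1, against 1.38 to 1.47 in E47, at least 1.36 in Twist2 and 1.28 to 1.41 in Snail2. The first Snail2 column equals a file recorded for E47, and the third E47 column one recorded for Snail2. The other E47 columns, every Twist1 column and the first Zeb1 and Zeb2 columns also equal files recorded for another line. The part of width and of these exchanged records in the likeness was not tested. At the 96 spots higher in Snail1 and lower in Snail2, the median was 0.72 in Zeb1, -0.31 in Zeb2, -0.70 in Twist1, -1.42 in E47 and -1.68 in Twist2. At the 104 spots of the other direction it was -0.90, 0.46, 0.59, 1.73 and 1.30 in the same order. The line mean lay nearer to Snail2 than to Snail1 at 193 of the 200 opposite spots for Twist2, 186 for E47, 160 for Twist1, 128 for Zeb2 and 23 for Zeb1. Over all tested spots it was nearer to Snail2 at 74.8%, 73.8%, 60.4%, 50.2% and 21.3% in that order of lines.

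At the spots changed in Snail2 only, the medians of E47 and Twist2 lay near those of Snail2, at 1.79 and 1.71 for those higher and -1.85 and -1.96 for those lower. Zeb1 stood at -0.03 and 0.04, beside Snail1 at the control level, and Zeb2 lay between at 0.86 and -1.01. At the spots changed in Snail1 only, Zeb1 came closest to Snail1, with a median of 0.92 for those higher and -0.83 for those lower. Zeb1 was still nearer to Snail1 than to Snail2 at only 181 and 192 of these 299 and 309 spots. At the spots that changed alike but more in Snail1, Zeb1 was nearer to Snail2 at 64 of 90 higher and 42 of 55 lower ones. This was not particular to Zeb1. The higher counts were 70 in E47, 70 in Twist2, 67 in Zeb2 and 35 in Twist1. The lower counts were 48 in E47, 48 in Twist2, 46 in Twist1 and 46 in Zeb2. These classes were chosen for the larger change in Snail1, which by itself favours nearness to Snail2.

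**Figure D4:**
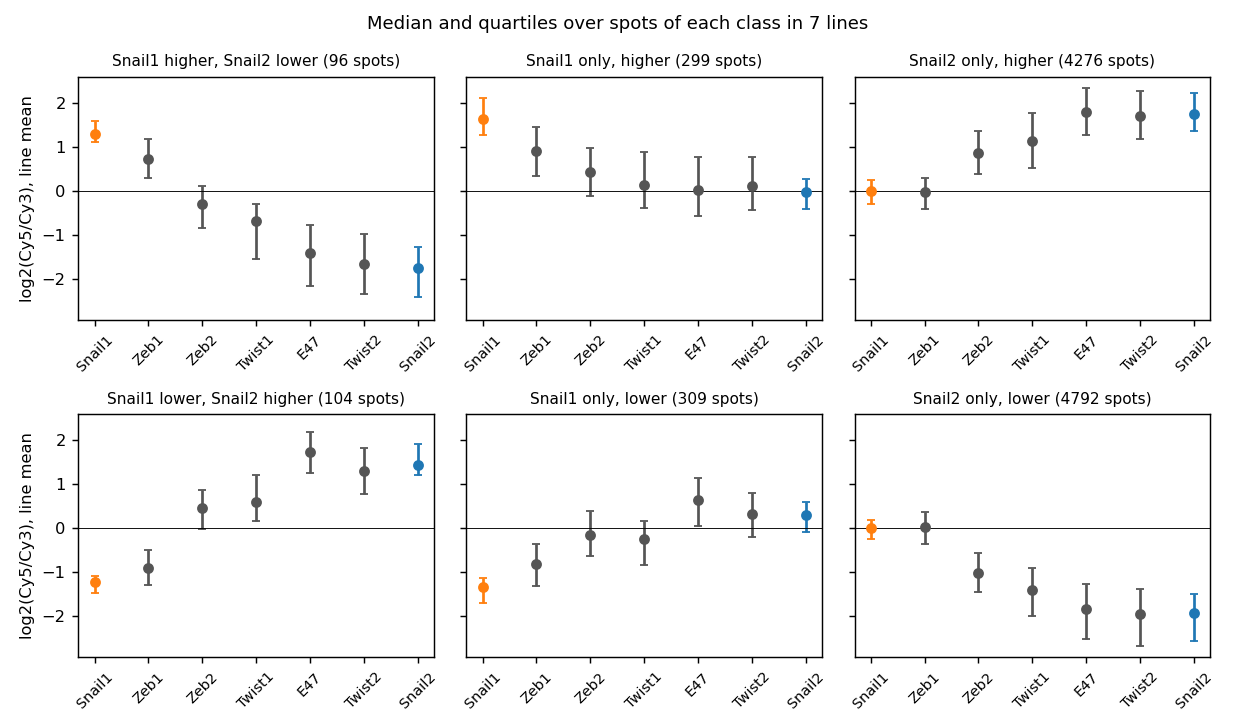
Median (points) and quartiles (bars) over spots of the line mean log2(Cy5/Cy3) (vertical axis) in 7 lines, for the 6 classes in which Snail1 and Snail2 moved oppositely or alone. In both opposite classes Zeb1 lies next to Snail1, and E47 and Twist2 lie on the side of Snail2, with E47 (1.73) beyond Snail2 (1.45) where Snail2 is higher; at Snail2-only spots Zeb1 stays at -0.03 and 0.04 beside Snail1.

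In each column that equalled a file, the 881 to 925 unequal spots all shared a transcript name with another spot, under which their value was found. Spots sharing a name, of which only some were exchanged in a given column, made up 1338 of the tested spots and 6 of the 200 opposite ones. None of the 20 spots named here (0) was among them.

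The scanner files under their recorded samples gave another picture. With normexp background correction and loess, the arrays recorded for the lines differed at 11 spots (0.0364%), 1 higher (0.00331%) and 10 lower (0.0331%) in Snail1. The columns gave 6 of these the same call and 0 the opposite one. Against control, the recorded Snail1 arrays changed 634 spots (2.1%), 165 higher (0.547%) and 469 lower (1.55%), and the recorded Snail2 arrays 5097 (16.9%), 2507 higher (8.31%) and 2590 lower (8.58%). By limma, 2212 spots had an unadjusted p under 0.05. With the scanner software's processed ratios, the same kind of value as the equal columns, 231 spots differed. The third file recorded for Snail1 correlated with the first and second at -0.22 and -0.16 across spots, while those 2 correlated at 0.84 with each other and at 0.65 to 0.84 with the Snail2 files. None of the 20 named spots (0) was called in the recorded arrays with normexp and loess, where 0.0364% of all tested spots were called. The sign of the difference was the same at 14 of 20, and the share over all differing spots is not given here. At A_11_P0000020113 the recorded means were -1.80 for Snail1 and -2.54 for Snail2, and at A_11_P0000034616 they were 1.08 and 2.57. Of the recorded Snail2 files, 2 hold the same measurements as Snail2 columns, so these values are no independent replicate.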

How the data were processed

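Each of 21 samples was 1 two-colour array of total RNA. The scanner files are output of Agilent Feature Extraction 10.7.1.1 per the file headers (version 10.0 per the submitters' processing notes). The deposited log10 ratio, LogRatio, is processed Cy5 over processed Cy3. The value table holds 21 columns of the same log10 scale, which was checked for the 15 columns equal to a file, all of Snail2 among them, and is assumed, with the direction, for Snail1. Column medians were 0, and whether the authors centred them further remains unknown from the labels and headers. Intensity columns are the deposited median spot and background brightness, per the file headers.

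Columns were multiplied by log2 of 10 to log2 ratios. One limma 3.58.1 fit (R 4.3.3, lmFit, eBayes) over 21 columns gave 7 line means; Snail1 and Snail2 were tested against 0, so that variation of the control itself does not enter, and against each other, with Benjamini-Hochberg adjustment over 30183 spots. No block was used. The design named 2 spots per class: those with the largest absolute difference among spots well above background in all 21 files and without overlap of the lines' columns. The fit was tested on simulated data, where false calls ran slightly above the nominal share and changed spots with a wide spread were often missed; the limits of that test were set after its first runs. Recorded scanner files were corrected by normexp (offset 50) on median signals and by loess, without control and outlier spots; 2826 spots then lacked a value on at least 1 array. The comparison and classes were chosen with earlier results of these data known. Alternatives covered the source, filter, scaling, variance model, thresholds, replicate block and each Snail column left out.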

Additional observations from a re-analysis of the deposited data

Results flagged for a closer look

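The results below stand out because the effects of the 2 lines against the common control differed by the test of the difference itself. They are the 11862 spots that differed between Snail1 and Snail2 and the 200 called in opposite directions, and the 20 named spots, given here as Snail1 minus Snail2 on the log2 scale. Opposite spots differed by 8.56 (A_11_P0000020113) and 7.97 (A_11_P0000029053), both bounds because the Snail2 line channel was not well above background, and by -5.65 (A_11_P000004831) and -5.30 (A_11_P000004473). Where Snail1 was the low line no signal flags exist, so -5.65 and -5.30 may be bounds too. Snail1-only spots differed by 3.85 (A_11_P0000040225), 3.84 (A_11_P000008923), -4.50 (A_11_P0000027076) and -4.07 (A_11_P0000019792). Snail2-only spots differed by -4.44 (A_11_P0000034616), -4.13 (A_11_P0000020198), 6.17 (A_11_P0000014368) and 5.93 (A_11_P0000015964). The last is in part a bound, with the line channel well above background in 2 of 3 Snail2 files. Spots changed more in Snail1 differed by 3.69 (A_11_P000003644), 3.63 (A_11_P0000019715, with Cy5 at 65528 in 2 Snail2 files), -4.11 (A_11_P000009246) and -3.64 (A_11_P0000036596), and those changed more in Snail2 by -3.08 (A_11_P0000014210), -3.02 (A_11_P0000012981), 3.87 (A_11_P0000022097) and 3.58 (A_11_P0000038668). Array weights, which limma estimates from how far each array departs from its group, were 0.63, 11.4 and 0.50 for the 3 Snail2 columns in the order of their numbers and 1.18, 1.63 and 0.66 for those of Snail1. With these weights 13761 spots differed.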

How the results depend on the processing

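Leaving out 1 Snail column at a time gave 10768 to 11485 differing spots, 2860 to 3272 Snail1 calls, 13257 to 13930 Snail2 calls, and 141 to 198 opposite, 505 to 599 Snail1-only, 8310 to 8930 Snail2-only, 465 to 631 unequal and 1348 to 1482 alike spots. With the replicate block the lines differed at 11797 spots. Replicate numbers did not pair the columns, since deviations of same-numbered Snail1 and Snail2 columns correlated at 0.04, -0.06 and -0.13. Scaling the columns to a common spread gave 8737 Snail1 calls, 631 opposite, 3277 Snail1-only, 3891 Snail2-only and 1259 unequal spots. Quantile normalisation gave 8552 Snail1 calls, 699 opposite, 2860 Snail1-only, 4378 Snail2-only and 2663 alike spots. Requiring signal in all 21 files left 2133 Snail1 calls and 884 alike spots, from fewer spots tested. The adjusted p alone gave 6148 Snail1 calls and 1040 opposite, 1452 unequal and 2289 alike spots. A log2 limit of 2 gave 4343 differing spots, 1073 Snail1 and 5264 Snail2 calls, and 3 opposite, 112 Snail1-only, 3148 Snail2-only, 71 unequal and 675 alike spots. Requiring the other line within 0.5 of 0 left 376 Snail1-only spots. Recorded files with processed ratios gave 231 differing spots, 7070 Snail1 calls, and 13 opposite, 9 Snail1-only, 168 Snail2-only, 37 unequal and 5648 alike spots. With normexp and loess they gave 11 differing spots, 634 Snail1 and 5097 Snail2 calls, and 0 opposite, 1 Snail1-only, 8 Snail2-only, 0 unequal and 497 alike spots, and 1 differing spot with slide as a random block. For these last 2 sources the samples differ as well as the processing, and the cause was not tested. The other alternatives kept each count within 1.5 times, among them 2 chosen after seeing the data: without spots at exactly 0 in a Snail column 11479 spots differed, and without spots sharing a transcript name 11415.

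Under 18 alternatives on the columns, 350 of 360 values of the 20 named spots kept direction and call, 10 lost the call and 0 reversed. These spots were chosen for large differences, and alternatives of threshold, filter, replicate block and variance trend leave the difference itself unchanged. The count thus says little about how firm the calls are. With processed ratios of recorded files the difference reversed at A_11_P0000040225 (-0.82), A_11_P0000027076 (0.71), A_11_P000003644 (-1.05), A_11_P000009246 (0.18) and A_11_P0000036596 (2.11). With normexp and loess it reversed at A_11_P000004473 (0.035), A_11_P0000027076 (0.38), A_11_P000003644 (-0.95), A_11_P0000019715 (-2.70), A_11_P000009246 (0.41) and A_11_P0000036596 (1.42). Signal flags exist for the Snail2 columns through their equal files but not for the Snail1 columns, where only exact zeros could mark lost signal. Low Snail1 values at the named spots may therefore be bounds.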
